A study of Homo sapiens with 60 samples.

Results

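The comparison described here sets HEK293-EBNA1-6E cells that lack both ALG6 and UGGT1 (ALG6/UGGT1-/-) against the parental WT cells, gene by gene. These cells derive from human embryonic kidney (HEK293) and make EBNA1, a protein of Epstein-Barr virus. The table of counts per 1000000 reads (CPM) lists 42141 genes. Of these, 14279 genes were analyzed, those that reached 1 CPM in 3 or more of 6 libraries, 3 from ALG6/UGGT1-/- cells and 3 from WT cells. The ALG6/UGGT1-/- line was made by transfecting guide RNA and Cas9-GFP plasmids, sorting, and growing colonies from single cells, and WT cells are the unedited line. No drug treatment is named for either group, and both were cultured for 48 hours before poly(A) mRNA was taken. A single line of each genotype was sequenced, so that an effect of the clone and one of the genotype cannot be told apart. The replicates are biological replicates of 1 line, and nothing in the sources says that they came from separate clones, so every p-value below measures only the spread between these libraries. The study also sequenced ALG6-/-, ALG6/UGGT2-/- and ALG6/UGGT1/UGGT2-/- lines, with 3 libraries each (15 libraries in all), which are used below only to place single results.

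ALG6 is the ER glucosyltransferase that adds the first glucose to the lipid-linked oligosaccharide, so cells without it transfer N-glycans that carry no glucose. UGGT1 is the folding sensor of the ER: it puts a glucose back onto the glycans of incompletely folded glycoproteins, which are then bound by the lectin chaperones calnexin and calreticulin. UGGT2 is its paralogue. When unfolded proteins gather in the ER, 3 sensors, ATF6, IRE1 and PERK, start the unfolded protein response, in which ATF6 raises ER chaperone genes, IRE1 splices XBP1 mRNA and PERK slows translation and raises ATF4.

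Each of the 6 libraries summed to 1000000 CPM with 1 CPM standing for an estimated 23.8 to 25.7 reads. ALG6/UGGT1-/- replicate 1 and WT replicate 3 stood apart from the others of their line. The SD of the log2 difference between replicates was 0.17 for ALG6/UGGT1-/- replicates 2 and 3 and 0.18 for WT replicates 1 and 2, but between 0.39 and 0.51 in every pair with 1 of those libraries. Both deviated from the mean of their line along transcript length (Spearman rho across 13072 genes of -0.55 for ALG6/UGGT1-/- replicate 1 and -0.64 for WT replicate 3) and GC content (rho of 0.40 and 0.49). Counts of called genes are therefore given with these libraries and, for each gene list, also without the pair, which is called the 4-library comparison below. As deposited, the log2 fold changes of all genes had a median of 0.08, and of 0.01 after each library was rescaled by its median ratio to the 6 libraries. Across the 13072 genes the fold changes as deposited also followed GC content (rho of -0.44) and transcript length (0.29). With the ALG6/UGGT1-/- mean set against WT replicate 1 or 2 alone, rho with GC content was -0.17 and -0.36. Neither scaling corrects for GC content or length. The genes KRT8 and KRT18, epithelial keratins that HEK293 cells express, were at 200.1 to 215 CPM and 91.5 to 98.8 CPM in ALG6/UGGT1-/- cells, against 207 to 271 CPM and 97.8 to 113 CPM in WT cells. VIM, the intermediate filament gene vimentin, was at 274, 259 and 266 CPM in ALG6/UGGT1-/- cells, against 409, 424 and 400 CPM in WT cells. Of 9 leukocyte, 6 endothelial and 9 muscle and fibroblast markers, 7, 5 and 6 stayed under 1 CPM in all 6 libraries.

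Both targeted mRNAs were lower in ALG6/UGGT1-/- cells, and both were still detected. ALG6 mRNA was at 2.27, 2.69 and 3.66 CPM in ALG6/UGGT1-/- cells, against 15.6, 14.6 and 12.7 CPM in WT cells. It fell by 2.15 on the log2 scale (standard error 0.18, adjusted p = 0.00214 from limma) to 20.1% of the WT mean, and the groups did not overlap. UGGT1 mRNA was at 18.04, 27.7 and 28.9 CPM in ALG6/UGGT1-/- cells, against 78.2, 79.8 and 43.1 CPM in WT cells, which is 37.1% of the WT mean. Its log2 fold change was -1.39 as deposited (standard error 0.29, adjusted p = 0.027) and -1.46 after rescaling (adjusted p = 0.00679), again without overlap. The UGGT1 call was lost when any library but WT replicate 3 was left out (adjusted p of 0.0594 to 0.102), while its log2 fold change stayed between -1.68 and -1.18. An exact permutation test of 3 against 3 (two-sided) gave p = 0.1 for each gene, the smallest it allows. UGGT2, which was not targeted, was at 13.6, 20.1 and 20.2 CPM in ALG6/UGGT1-/- cells, against 22.8, 19.2 and 12.8 CPM in WT cells. These values overlapped, and UGGT2 did not pass the test (log2 fold change -0.00, adjusted p = 0.992). The library with the lowest UGGT2 value of each line was the library that stood apart, and after correction for transcript length and GC content UGGT2 was called lower (-0.40). Levels of mRNA do not measure protein. The study checked UGGT1 by immunoblot, and genes for which it had no antibody by their genomic DNA.

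**Figure D1:**
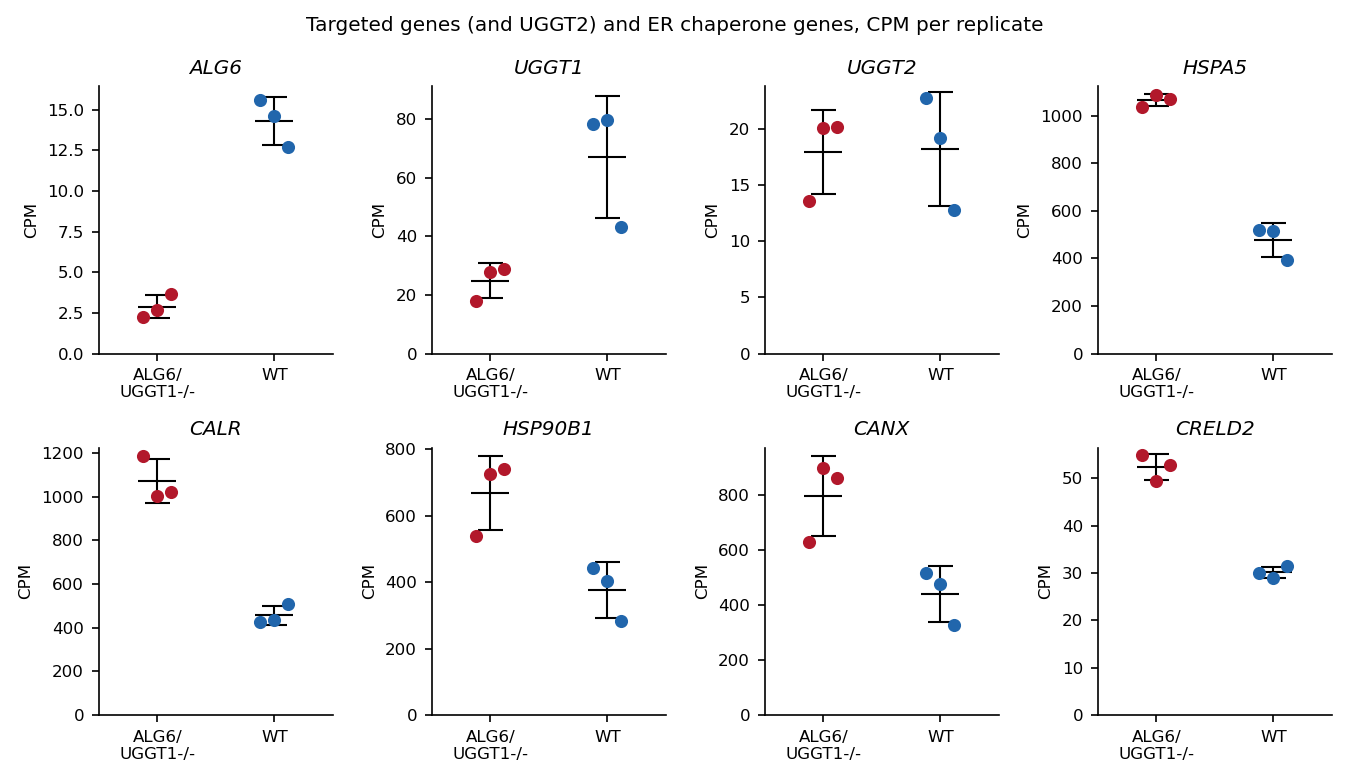
CPM (linear axis from 0) of the targeted genes ALG6 and UGGT1, of UGGT2 and of 5 ER chaperone genes in ALG6/UGGT1-/- cells (left in each panel) and WT cells (right). Points are the 3 replicates in order, and bars the mean with its SD. Every ALG6/UGGT1-/- point lies below every WT point for ALG6 and UGGT1 and above every WT point for the 5 chaperone genes, while the UGGT2 points overlap.

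Of the 14279 genes, 1232 were higher (8.63%) and 1254 lower (8.78%) in ALG6/UGGT1-/- than in WT cells by limma on log2(CPM + 0.5), with an adjusted p under 0.05, which is what "called" means below. After rescaling, 1089 were higher (7.63%) and 1080 lower (7.56%). Both scalings agreed on 842 higher genes (5.9%) and 887 lower genes (6.21%), and no gene was called in opposite directions. Of the genes called as deposited, 289 rose and 120 fell by over 1 log2 unit. In 2953 genes every ALG6/UGGT1-/- value lay above every WT value (20.7%), in 2767 every value lay below (19.4%), and in 8559 the groups overlapped. At an unadjusted p under 0.05, 2521 genes were higher (17.7%) and 2329 lower (16.3%). In the 4-library comparison, without the pair that stood apart, 4775 genes were higher (33.4%) and 3583 lower (25.1%), among them 1231 of the 1232 and 1250 of the 1254. Every 4-library count of a gene list below is to be read against these shares of 33.4% and 25.1%. List counts as deposited are to be read against 8.63% and 8.78%, and those after rescaling against 7.63% and 7.56%. Leaving out a library that did not stand apart gave far fewer calls: 322 higher and 285 lower without ALG6/UGGT1-/- replicate 2, 290 and 229 without replicate 3, 623 and 549 without WT replicate 1, and 372 and 281 without WT replicate 2. Once log2 values were corrected for GC content and transcript length, in 13072 genes, 2043 were higher (15.6%) and 2058 lower (15.7%).

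Most of the 15 largest rises were in genes at low levels in WT cells. LTBR, the lymphotoxin beta receptor of the TNF receptor family, led them, followed by the protease inhibitor gene SERPINB9, the YAP target ANKRD1, the collagen gene COL6A5 and the matrix gene THBS2. LTBR was at 34.8, 32.7 and 32.1 CPM in ALG6/UGGT1-/- cells, against 0.804, 1.10 and 0.678 CPM in WT cells, and its log2 fold change was 4.64 (standard error 0.15, adjusted p = 0.000125). The means of LTBR were 0.345, 0.694 and 1.01 CPM in ALG6-/-, ALG6/UGGT2-/- and ALG6/UGGT1/UGGT2-/- cells. SERPINB9, an inhibitor of granzyme B, was at 8.47, 12.1 and 10.4 CPM in ALG6/UGGT1-/- against 1.04, 0.512 and 0.479 CPM in WT cells (log2 fold change 3.22, adjusted p = 0.00144). THBS2, thrombospondin 2, was at 33.1, 48.2 and 46.5 CPM in ALG6/UGGT1-/- against 5.79, 4.84 and 3.63 CPM in WT cells (3.04, adjusted p = 0.00144). In both genes the lowest ALG6/UGGT1-/- value was several times the highest WT value. PLTP, PLIN2 and CTSZ were also among the 15. PLTP, the phospholipid transfer protein, was at 47.7, 42.7 and 40.1 CPM in ALG6/UGGT1-/- against 4.75, 5.39 and 5.23 CPM in WT cells (log2 fold change 2.97, adjusted p = 0.00026). PLIN2, which coats lipid droplets, was at 14.01, 11.7 and 12.1 CPM in ALG6/UGGT1-/- against 1.17, 2.28 and 1.80 CPM in WT cells (2.57, adjusted p = 0.00194). CTSZ, the lysosomal cysteine protease cathepsin Z, was at 37.5, 36.7 and 35.3 CPM in ALG6/UGGT1-/- against 5.23, 5.67 and 5.71 CPM in WT cells (2.62, adjusted p = 0.000252). In PLTP, PLIN2 and CTSZ alike, every ALG6/UGGT1-/- value lay far above every WT value. The means of CTSZ were 0.0276, 0.0654 and 0.0130 CPM in ALG6-/-, ALG6/UGGT2-/- and ALG6/UGGT1/UGGT2-/- cells.

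IFI16, a sensor of foreign DNA, was at 13.3, 15.5 and 13.4 CPM in ALG6/UGGT1-/- against 1.65, 1.69 and 0.918 CPM in WT cells (log2 fold change 2.95). Its means were 0.165, 10.3 and 4.59 CPM in ALG6-/-, ALG6/UGGT2-/- and ALG6/UGGT1/UGGT2-/- cells, so that it was not low in every other line. BHLHA15, known as MIST1, a factor of secretory cells that XBP1 controls, was at 6.71, 7.36 and 6.44 CPM in ALG6/UGGT1-/- against 0.804, 0.866 and 0.399 CPM in WT cells (2.65), and was listed at 0 in all 9 libraries of the other knockout lines. INHBA, the activin A subunit, was at 5.41, 9.86 and 9.67 CPM in ALG6/UGGT1-/- against 0.844, 1.02 and 0.798 CPM in WT cells (2.62). In IFI16, BHLHA15 and INHBA every ALG6/UGGT1-/- value was at least 5 CPM, and every WT value was under 2 CPM. The other rises among the 15 were COL6A5 with 3.15, ANKRD1 with 3.21, the organic anion transporter SLCO4C1 with 2.52, C1orf56 with 2.52, FAM169A with 2.51 and EPDR1 with 2.49 on the log2 scale. FAM169A lies in the run of genes on chromosome 5 described below.

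Among the falls, PKP3, the desmosomal plaque protein plakophilin 3, was nearly lost. It was at 1.01, 0.974 and 1.19 CPM in ALG6/UGGT1-/- cells, against 39.1, 40.7 and 46.7 CPM in WT cells, and fell by 4.78 on the log2 scale (standard error 0.13, adjusted p = 0.000125). Its means were 34.4, 32.9 and 42.3 CPM in ALG6-/-, ALG6/UGGT2-/- and ALG6/UGGT1/UGGT2-/- cells, and ALG6/UGGT1-/- cells were lower than the mean of those lines (log2 difference -4.56, adjusted p = 1.27e-11). SPATC1L was at 0.126, 0.156 and 0.239 CPM in ALG6/UGGT1-/- against 5.79, 6.85 and 7.86 CPM in WT cells (log2 fold change -3.44). It was likewise under 1 CPM on average in ALG6/UGGT2-/- and ALG6/UGGT1/UGGT2-/- cells, but at 15.4 CPM in ALG6-/- cells. CXCR4, the chemokine receptor for CXCL12, was at 46.8, 41.02 and 39.7 CPM in ALG6/UGGT1-/- against 187, 205 and 177 CPM in WT cells (-2.15, adjusted p = 0.000401), and the groups did not overlap. TSC22D3, the glucocorticoid-induced leucine zipper GILZ, was at 482, 385 and 390.4 CPM in ALG6/UGGT1-/- against 1759, 1839 and 1882 CPM in WT cells (-2.13, adjusted p = 0.000495). The 3 WT values of TSC22D3 lay close together and far above those of ALG6/UGGT1-/- cells. Its means were 1302, 747 and 458 CPM in ALG6-/-, ALG6/UGGT2-/- and ALG6/UGGT1/UGGT2-/- cells. The transcription factor genes SIX2, HES5 and POU3F3 were among the 15 as well. SIX2, a factor of nephron progenitors, was at 4.36, 4.29 and 3.18 CPM in ALG6/UGGT1-/- against 15.4, 16.2 and 16.3 CPM in WT cells (-1.90). HES5, a Notch target, was at 6.71, 6.54 and 6.25 CPM in ALG6/UGGT1-/- against 23.9, 28.3 and 22.5 CPM in WT cells (-1.85), with means of 76.9, 3.99 and 6.58 CPM in ALG6-/-, ALG6/UGGT2-/- and ALG6/UGGT1/UGGT2-/- cells. POU3F3, a neural and kidney factor, was at 35.5, 50.6 and 49.2 CPM in ALG6/UGGT1-/- against 158, 160.5 and 77.2 CPM in WT cells (-1.48). POU3F3 had 1 low WT value, in replicate 3, that still stayed above the ALG6/UGGT1-/- values. The other falls named by the rule were TEX14, FAM43B, TMEM266, the lipid phosphatase INPP5D and the potassium channel regulator KCNIP3, with log2 fold changes of -1.85, -1.52, -1.47, -1.42 and -1.40. HIST2H2AA4 (-1.47) is a near-identical copy of another histone gene, so its value is uncertain.

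CBS, cystathionine beta-synthase of the transsulfuration pathway, was at 9.90, 10.5 and 10.8 CPM in ALG6/UGGT1-/- against 78.7, 73.3 and 76.9 CPM in WT cells (log2 fold change -2.81), but it is uncertain too, because the genome build holds a near-identical copy, CBSL. CBSL was at 280.4, 254 and 253 CPM in ALG6/UGGT1-/- cells, against 251, 263 and 316 CPM in WT cells. Their sum was 290.3, 265 and 264 CPM in ALG6/UGGT1-/- cells, against 330.0, 336 and 393 CPM in WT cells. How RSEM divided reads between the copies was not tested. All 15 rises, and 13 of the 15 falls, also passed the test against the mean of the other 3 knockout lines under both scalings. The exceptions were ALG6 and TEX14. That mean can hide a line close to ALG6/UGGT1-/- cells. In all 15 rises every ALG6/UGGT1-/- value lay above all 9 values of the other lines, whereas this was so, in the other direction, for 7 of the 15 falls (PKP3, CXCR4, SIX2, FAM43B, HIST2H2AA4, TMEM266 and KCNIP3). SPATC1L, CBS, TSC22D3, HES5 and INPP5D passed the test with means near those of ALG6/UGGT1-/- cells in at least 1 of the other lines. The means of CBS were 70.3, 14.5 and 13.03 CPM in ALG6-/-, ALG6/UGGT2-/- and ALG6/UGGT1/UGGT2-/- cells, against 10.4 CPM in ALG6/UGGT1-/- cells. INPP5D had means of 2.51, 6.95 and 4.23 CPM in those lines, against 2.64 CPM. The 15 rises and 15 falls were chosen on the same ALG6/UGGT1-/- libraries, so the counts that passed the test are no independent support. Over all genes, 5269 were higher (36.9%) and 2612 lower (18.3%) than the other lines as deposited, and 3440 (24.1%) and 3472 (24.3%) after rescaling.

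**Figure D2:**
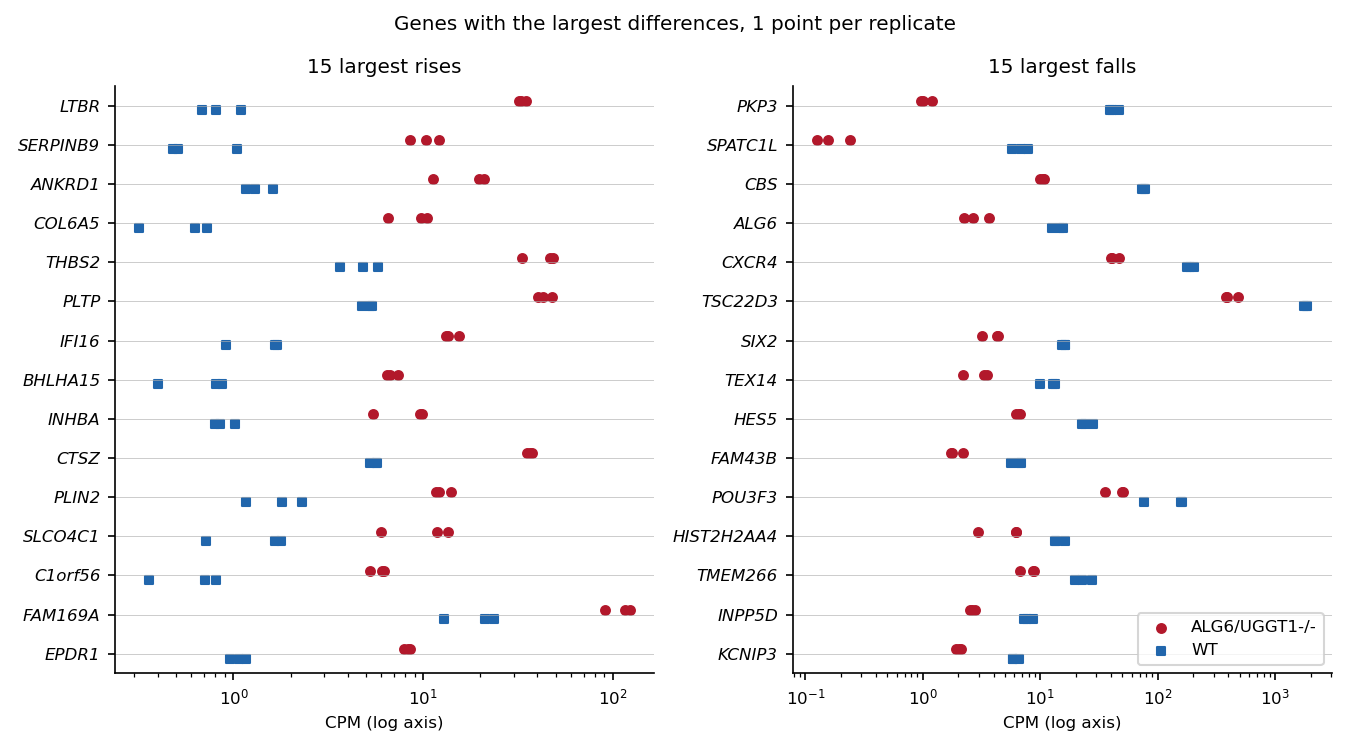
CPM (log axis) of the 15 genes with the largest rises (left) and the 15 with the largest falls (right), 1 point per replicate, with ALG6/UGGT1-/- cells as circles above WT cells as squares. Each gene was chosen because its groups do not overlap. LTBR and PKP3 lie farthest apart, with log2 fold changes of 4.64 and -4.78.

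Among the ER chaperone genes of ALG6/UGGT1-/- cells, 13 of 26 rose, led by CALR and HSPA5. On the list of 26 ATF6 targets and chaperones of the ER, 13 were higher, none was lower and 13 were not called, against 8.63% higher among all genes. After rescaling 10 were higher and none lower. Their median log2 fold change was 0.47 as deposited and 0.41 after rescaling, where all genes had 0.08 and 0.01, and in 19 of the 26 every ALG6/UGGT1-/- value lay above every WT value, against 20.7% of all genes. At an unadjusted p under 0.05, 20 were higher and 2 lower, where 17.7% and 16.3% of all genes were. In the 4-library comparison 20 were called higher and 3 lower, against 33.4% and 25.1% of all genes. The 13 became 4 without ALG6/UGGT1-/- replicate 2, 3 without replicate 3, 5 without WT replicate 1 and 4 without WT replicate 2. HSPA5, which encodes the chaperone BiP, was at 1036, 1086 and 1070 CPM in ALG6/UGGT1-/- cells, against 521, 516 and 392 CPM in WT cells (log2 fold change 1.17, standard error 0.12, adjusted p = 0.00389). CALR, calreticulin, was at 1186, 1005 and 1023 CPM in ALG6/UGGT1-/- cells, against 425, 434 and 508 CPM in WT cells (1.23, standard error 0.11, adjusted p = 0.00216). HSP90B1, the ER paralogue of HSP90 known as GRP94, was at 539, 726 and 740.1 CPM in ALG6/UGGT1-/- against 443, 404 and 282 CPM in WT cells (0.84, standard error 0.21, adjusted p = 0.0394). In HSPA5 and CALR the lowest ALG6/UGGT1-/- value lay far above the highest WT value, while HSP90B1 spread more in both lines and its lowest value of each line came from the library that stood apart. CANX, calnexin, was at 630.2, 899 and 859 CPM in ALG6/UGGT1-/- against 517, 476 and 327 CPM in WT cells (0.87, adjusted p = 0.0407), with the same spread. CRELD2, a secreted ER stress protein, was at 55.00, 49.4 and 52.8 CPM in ALG6/UGGT1-/- against 29.96, 28.97 and 31.4 CPM in WT cells (0.79, adjusted p = 0.00411). PDIA4, a protein disulfide isomerase, was at 462, 420.1 and 403 CPM in ALG6/UGGT1-/- against 292, 306 and 257 CPM in WT cells (0.59, adjusted p = 0.0119). None of these 3 overlapped between the lines.

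The other 7 called members also rose. SEL1L, the adaptor of the HRD1 ubiquitin ligase, had a log2 fold change of 1.02, SDF2L1, a cofactor of BiP, 0.64, MANF, a secreted ER stress protein, 0.62, the disulfide isomerases PDIA3 and PDIA6 0.57 and 0.45, the HRD1 ligase gene SYVN1 0.46 and the thioredoxin-like TXNDC11 0.45. Of these, SEL1L and SYVN1 were still called after rescaling. SYVN1 and CRELD2 lie in stretches of higher genes on chromosomes 11 and 22, described below, and 11 of the 22 members outside all such stretches were higher. Members that were not called include the nucleotide exchange factor HYOU1 (0.24, adjusted p = 0.0853) and the isomerase P4HB (0.36, adjusted p = 0.0851). The BiP cochaperones DNAJB11 (0.50, adjusted p = 0.0812) and DNAJC3 (0.99, adjusted p = 0.0723) were called only after rescaling. HERPUD1, a degradation factor known to respond to ER stress, was at 156, 124 and 125 CPM in ALG6/UGGT1-/- against 118, 119 and 129.6 CPM in WT cells, and these values overlapped. Against the mean of the other 3 knockout lines, 11 of the 13 genes were higher as deposited and 4 after rescaling. Of all genes, 36.9% and 24.1% were. The means of HSPA5 were 649, 505 and 1421 CPM in ALG6-/-, ALG6/UGGT2-/- and ALG6/UGGT1/UGGT2-/- cells, and those of CALR 749, 406 and 2335 CPM. In HSPA5, CALR, CRELD2 and PDIA4, the 4 list members of smallest p, the mean was higher in ALG6/UGGT1/UGGT2-/- than in ALG6/UGGT1-/- cells.

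The promoters of 5 chaperone genes called higher hold the ER stress response element (ERSE), the sequence that ATF6 and the factor NF-Y are known to bind. It reads CCAAT, 9 bases of any kind, then CCACG. It was searched on both strands from 250 bases before to 50 bases after each gene's start in RefSeq promoters of GRCh38.p14. The shorter ERSE-II reads ATTGG, 1 base, CCACG, so that it shares the CCACG part, and no promoter of the list held both. The sites below are shown because they lie in 5 genes whose mRNA rose, with both parts of the ERSE in capitals, each with 8 flanking bases and read 5′ to 3′ along the gene. They lie at chr9:125241383-125241417 on the minus strand (HSPA5) and, on the plus strand, at chr19:12938376-12938410 (CALR), chr22:49918546-49918580 (CRELD2), chr5:179698770-179698804 (CANX) and chr12:103930208-103930347 (HSP90B1, with both of its sites).
HSPA5: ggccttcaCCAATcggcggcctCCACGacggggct
CALR: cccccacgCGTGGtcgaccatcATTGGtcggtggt
CRELD2: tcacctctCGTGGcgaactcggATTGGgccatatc
CANX: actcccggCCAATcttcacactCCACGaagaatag
HSP90B1: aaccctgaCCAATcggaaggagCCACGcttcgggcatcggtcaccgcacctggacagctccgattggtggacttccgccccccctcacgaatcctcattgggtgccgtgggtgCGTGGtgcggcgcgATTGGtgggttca

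The capitals read CGTGG and ATTGG where the element lies on the other strand. Of the 25 members with a promoter in the table, 5 held an ERSE, against 22 of all 27305 promoters (0.0806%) and 15 of the 10651 promoters of tested genes (0.141%). The list consists of known ATF6 targets and ER chaperones, so its share with a site for ATF6 is no independent support. All 5 with an ERSE were among the 12 of these members called higher, and none was among the 13 not called. SEL1L and PDIA4 were called higher and held no ERSE. Of the genes higher under both scalings, 7 of 615 promoters held it (1.14%), and of those lower under both, 0 of 655. The 7 include the 5 list members shown above, so this count is no separate support either. ERSE-II was found in HYOU1, SDF2L1 and HERPUD1, of which SDF2L1 was called, and in 15 of all promoters (0.0549%). The CARE element of ATF4 targets (TGATG, 1 base, AAT) was found in 1 of 28 promoters of the PERK and ATF4 list. It was in 1.02% of all promoters and 0.451% of the promoters of tested genes. Of the genes called under both scalings, 8 of 615 higher (1.3%) and 2 of 655 lower (0.305%) held CARE. A match is a description of the sequence. Binding was not measured.

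Within the calnexin cycle, the lectin chaperones and the enzymes around them moved in different directions. Of 12 genes, 4 were higher (CALR, CANX, PDIA3 and GANAB), 2 were lower (UGGT1 and MAN1B1) and 6 were not called, with 4 higher and 3 lower in the 4-library comparison. After rescaling 2 were higher and 2 lower. GANAB, the catalytic subunit of glucosidase II, which removes the inner glucoses, was at 1018, 918 and 899 CPM in ALG6/UGGT1-/- against 663, 673 and 727 CPM in WT cells (log2 fold change 0.46, adjusted p = 0.0155). MAN1B1, the ER mannosidase that marks glycoproteins for degradation, was at 38.5, 33.97 and 36.1 CPM in ALG6/UGGT1-/- against 59.6, 63.4 and 68.6 CPM in WT cells (-0.81, adjusted p = 0.00478). Neither gene overlapped between the lines, and MAN1B1 kept its call after rescaling, unlike GANAB, which lies in a chromosome 11 stretch. MOGS, glucosidase I, which removes the outermost glucose, and PRKCSH, the other subunit of glucosidase II, were not called. In the oligosaccharyltransferase, which transfers the glycan, 2 of 12 genes were higher, OSTC (0.63) and TMEM258 (0.42). None of the 12 was called after rescaling. In the 4-library comparison 8 were higher and none lower, against 33.4% and 25.1% of all genes. Of 31 genes of dolichol-linked oligosaccharide assembly, 4 were higher and 2 lower, and 2 and 2 after rescaling (8 and 7 in the 4-library comparison). The lower pair was ALG6 itself and DPM3, a subunit of the dolichol-phosphate mannose synthase, at 20.6, 18.7 and 17.8 CPM in ALG6/UGGT1-/- against 27.6, 30.4 and 35.5 CPM in WT cells (-0.69). The higher genes include GNPNAT1, which makes an intermediate of UDP-GlcNAc (0.54), and the mannosyltransferase ALG12 (0.30, not called after rescaling).

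Beyond the chaperones, the sensors and effectors of the unfolded protein response were called in smaller numbers. Of 20 sensors and regulators, 4 were higher and none lower, and 13 and 5 in the 4-library comparison. After rescaling 2 were higher (10%, against 7.63% of all genes) and none lower. ERN1, which encodes IRE1, was at 54.1, 71.1 and 65.8 CPM in ALG6/UGGT1-/- against 39.4, 38.3 and 22.1 CPM in WT cells (log2 fold change 0.96, adjusted p = 0.0421). ATF5, a transcription factor made when PERK is active, was at 140.2, 142 and 144 CPM in ALG6/UGGT1-/- against 87.3, 87.9 and 94.6 CPM in WT cells (0.66, adjusted p = 0.00389). Both were called under both scalings, while XBP1 (0.60) and PPP1R15A, the phosphatase subunit GADD34 (0.61), were called only as deposited. Spliced and unspliced XBP1 mRNA are not separated in the table. Of 34 targets of PERK and ATF4, 11 were higher as deposited and 6 after rescaling, and 2 were lower under each. Their 4-library counts were 23 higher and 6 lower, and the 11 became 5 without ALG6/UGGT1-/- replicate 3 or WT replicate 2, 6 without ALG6/UGGT1-/- replicate 2 and 7 without WT replicate 1. CTH, the next enzyme of transsulfuration after CBS, was at 176, 172 and 162 CPM in ALG6/UGGT1-/- against 88.1, 79.9 and 83.5 CPM in WT cells (1.02, adjusted p = 0.00147), and DDIT4, an inhibitor of mTORC1, at 171, 155 and 160 CPM in ALG6/UGGT1-/- against 335, 369 and 374 CPM in WT cells (-1.15, adjusted p = 0.00133). Both were far from overlapping. CTH lies in the stretch of higher genes after ALG6 on chromosome 1. Of 16 aminoacyl-tRNA synthetase genes, which ATF4 is also known to raise, 1 was higher and 3 lower, led by KARS (-0.57). These counts were 1 and 1 after rescaling, and 5 and 4 in the 4-library comparison.

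Genes of protein entry into the ER and of exit from it rose in a few cases. Of 40 genes of translocation and COPII export, 6 were higher and none lower. At an unadjusted p under 0.05, 16 were higher and 1 lower, where 17.7% and 16.3% of all genes were. In the 4-library comparison 25 were higher and 2 lower, against 33.4% and 25.1%. TRAM1, a helper of the translocon, was at 119, 109.8 and 117 CPM in ALG6/UGGT1-/- against 59.99, 54.6 and 53.7 CPM in WT cells (log2 fold change 1.03). SPCS2, a subunit of the signal peptidase in a chromosome 11 stretch, had 0.96, SRP19, of the signal recognition particle, 0.92, and SEC61B, of the translocon, 0.57. In all 4 genes, named for their small p, every ALG6/UGGT1-/- value lay above every WT value. Over the list of 40 this was so in 19 genes, and every value lay below in 1, against 20.7% and 19.4% of all genes. Of 32 genes of ER-associated degradation, 8 were higher and 1 lower, and 4 and 1 of the 28 outside the chromosome stretches. Their 4-library counts were 20 higher and 7 lower. Without ALG6/UGGT1-/- replicate 2 or 3 or WT replicate 2 only 1 was higher, and without ALG6/UGGT1-/- replicate 1 or WT replicate 1 only 3. The lower gene was OS9, a lectin that reads trimmed glycans, at 166, 154 and 155 CPM in ALG6/UGGT1-/- against 194, 212 and 223 CPM in WT cells (-0.40, adjusted p = 0.0223, not called after rescaling).

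Lysosomal genes moved both ways. Of 39 lysosomal hydrolases, 7 were higher and 7 lower as deposited, and 3 and 3 after rescaling (11 and 16 in the 4-library comparison). As deposited that is 17.9% each way, against 8.63% and 8.78% of all genes. After rescaling it is 7.69% each way, near the 7.63% and 7.56% of all genes. Besides CTSZ, the acid sphingomyelinase gene SMPD1, in a chromosome 11 stretch, was at 15.5, 14.8 and 13.7 CPM in ALG6/UGGT1-/- against 8.04, 8.62 and 9.38 CPM in WT cells (log2 fold change 0.73). CTSA, the protective protein of galactosidase, was at 12.5, 11.6 and 11.8 CPM in ALG6/UGGT1-/- against 20.02, 19.6 and 23.2 CPM in WT cells (-0.78), and HEXA, the alpha subunit of beta-hexosaminidase, at 76.2, 64.3 and 70.5 CPM in ALG6/UGGT1-/- against 99.5, 105 and 124 CPM in WT cells (-0.63). None of these genes, named for their small p, overlapped between the lines. Over the list of 39, every ALG6/UGGT1-/- value lay above every WT value in 10 genes and below in 13, against 20.7% and 19.4% of all genes. Of 28 genes of the lysosome membrane and its proton pump, 7 were higher and none lower (15 and 2 in the 4-library comparison), and 2 after rescaling: NPC1, the cholesterol exporter, at 167, 146 and 151 CPM in ALG6/UGGT1-/- against 102, 103 and 83.5 CPM in WT cells (0.69), and the pump subunit gene ATP6V1E1 (0.58). Of 14 genes of mannose 6-phosphate tagging and sorting, limma called 0 as deposited, 6 were higher and 1 lower at an unadjusted p under 0.05 (17.7% and 16.3% of all genes), and 9 were higher and 1 lower in the 4-library comparison (33.4% and 25.1%). NAGPA, the enzyme that uncovers the tag, was called lower after rescaling (-0.56). Of 30 mRNAs of UGGT substrates found in ALG6/UGGT1-/- cells, 2 were higher and 3 lower (1 and 1 after rescaling, 11 and 5 in the 4-library comparison). ARSA, arylsulfatase A, was higher (0.58) and the lipoprotein receptor SCARB1 lower (-0.39), both called only as deposited. That list was chosen in the study on proteins of this same line and is no independent evidence. Of 27 genes of Golgi N-glycan processing, 4 were higher and 4 lower, and 3 and 2 after rescaling. In the 4-library comparison 10 were higher and 7 lower (37.0% and 25.9%), near the 33.4% and 25.1% of all genes. The sialyltransferase ST3GAL3 fell (-0.80) with 17.9, 15.4 and 16.8 CPM in ALG6/UGGT1-/- against 27.9, 28.1 and 32.5 CPM in WT cells, as did ST6GAL1 (-0.61), while MGAT3, which adds the bisecting GlcNAc, rose (0.51).

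**Figure D3:**
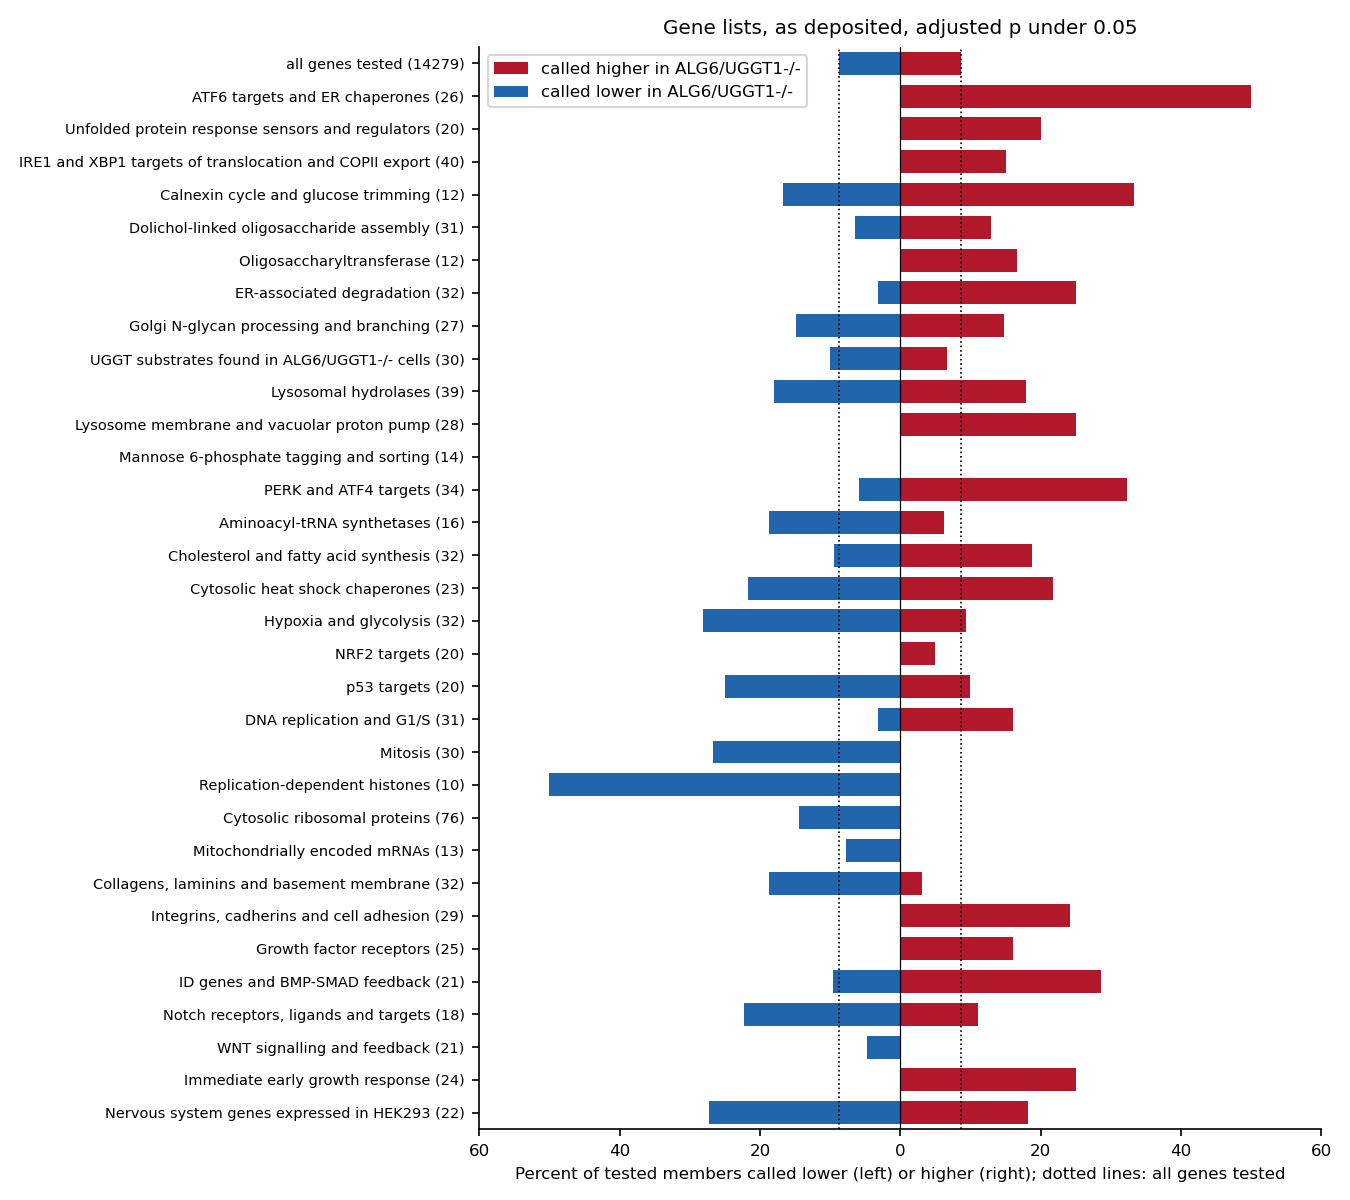
Percent of the tested members of each gene list called lower (bars to the left) or higher (bars to the right) in ALG6/UGGT1-/- than in WT cells as deposited, with the number tested in parentheses. Dotted lines mark 8.78% lower and 8.63% higher among all genes tested. Of the ATF6 list 13 of 26 were higher, and of the mitosis list 8 of 30 were lower.

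A share of the mitotic, histone and ribosomal protein genes was lower. Of 30 mitosis genes, 8 were lower and none higher both as deposited and after rescaling, 7 of them under both, with a median log2 fold change of -0.16 as deposited. At an unadjusted p under 0.05, 2 were higher and 11 lower, where 17.7% and 16.3% of all genes were. In the 4-library comparison 6 were called higher and 18 lower, against 33.4% and 25.1%. The 8 lower genes became 3 without ALG6/UGGT1-/- replicate 2, 2 without replicate 3 and 4 without WT replicate 2. KIF20A, a kinesin of cytokinesis, was at 26.1, 21.9 and 24.1 CPM in ALG6/UGGT1-/- against 52.9, 57.1 and 44.7 CPM in WT cells (log2 fold change -1.08, adjusted p = 0.00479). PLK1, the mitotic kinase, was at 119.5, 98.1 and 108 CPM in ALG6/UGGT1-/- against 169.5, 181 and 203 CPM in WT cells (-0.76, adjusted p = 0.00806). UBE2C and AURKB, further mitotic regulators, had -0.73 and -0.63. These 4 genes were named for their small p, so the lack of overlap between the lines in each largely follows from that choice. Over the list of 30, every ALG6/UGGT1-/- value lay below every WT value in 13 genes and above in 2, against 19.4% and 20.7% of all genes. In bulk RNA, fewer cells in mitosis and less mRNA per cell cannot be told apart. Of 10 tested replication-dependent histone genes, 5 were lower and none higher (6 and none in the 4-library comparison), with a median of -0.55, led by HIST3H2A at 16.4, 14.7 and 14.96 CPM in ALG6/UGGT1-/- against 30.1, 28.7 and 34.1 CPM in WT cells (-0.99). Histone mRNAs of this kind mostly lack poly(A) tails, and the libraries were made from poly(A) mRNA. Of 31 genes of DNA replication, 5 were higher and 1 lower, and outside the chromosome stretches 3 and 1 of 28 (14 and 4 of the 31 in the 4-library comparison). After rescaling 2 of the 31 were higher and 1 lower. LIG1, DNA ligase I, was the lower one (-0.85), while RRM1, the large subunit of ribonucleotide reductase, had 0.65 and the flap endonuclease FEN1 0.62, both in chromosome 11 stretches of higher genes. Of 76 cytosolic ribosomal protein genes, 11 were lower and none higher (7 and none after rescaling), with a median of -0.21. The 11 are 14.5%, against 8.78% of all genes, and the 7 are 9.21%, near the 7.56% of all genes lower after rescaling. RPL4 was at 1658, 1272 and 1359 CPM in ALG6/UGGT1-/- against 2935, 3047 and 3415 CPM in WT cells (-1.14) and RPL14 at 511, 522 and 536 CPM in ALG6/UGGT1-/- against 791, 815 and 805 CPM in WT cells (-0.62). Neither gene, named for its small p, overlapped between the lines. Over the list of 76, every ALG6/UGGT1-/- value lay below every WT value in 24 genes and above in 1, against 19.4% and 20.7% of all genes. RPL11 (-0.63) and RPL28 (-0.48) were lower too. In the 4-library comparison 8 ribosomal protein genes were higher and 51 lower, against 33.4% and 25.1% of all genes. The 11 became 4 without ALG6/UGGT1-/- replicate 2, 2 without replicate 3 and 3 without WT replicate 2. Of 13 mitochondrially encoded mRNAs, 1 was lower, MT-ND5 (-0.38), which was not called after rescaling. The median of the 13 was -0.23, and in the 4-library comparison 11 were lower and none higher, against 25.1% of all genes lower.

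Cytosolic stress and metabolic genes gave mixed counts. Of 23 cytosolic heat shock genes, 5 were higher and 5 lower (11 and 7 in the 4-library comparison). The heat-inducible HSP70 genes HSPA1A and HSPA1B, near-identical copies, summed to 552, 581 and 560 CPM in ALG6/UGGT1-/- cells, against 993, 1150 and 891 CPM in WT cells, with log2 fold changes of -0.98 and -0.70. HSF1, the factor that drives them, was at 123, 128 and 114 CPM in ALG6/UGGT1-/- against 176, 175 and 197 CPM in WT cells (-0.58), whereas the HSP90 gene HSP90AA1 was higher (0.66). Of 32 hypoxia and glycolysis genes, 3 were higher and 9 lower (4 and 4 after rescaling, 9 and 15 in the 4-library comparison), with a median of -0.23. The 9 lower genes became 3 without ALG6/UGGT1-/- replicate 2 or 3 or WT replicate 2, and 4 without WT replicate 1. NDRG1, induced by hypoxia, was at 116, 101 and 103 CPM in ALG6/UGGT1-/- against 198, 222 and 201 CPM in WT cells (-0.96), and the phosphofructokinase genes PFKL and PFKP had -0.76 and -0.64. Of 20 p53 targets, 2 were higher and 5 lower (2 and 2 after rescaling, 7 and 8 in the 4-library comparison). TP53I3, an oxidoreductase, was higher (1.29) and the proapoptotic BBC3, known as PUMA, lower (-0.73). Of 32 genes of cholesterol and fatty acid synthesis, 6 were higher and 3 lower (11 and 11 in the 4-library comparison), but outside the chromosome stretches the median was 0.01 and 4 of 26 were higher. SC5D, a sterol desaturase of cholesterol synthesis, was at 16.99, 20.6 and 22.04 CPM in ALG6/UGGT1-/- against 12.7, 11.6 and 9.50 CPM in WT cells (0.79, adjusted p = 0.0217), without overlap. The fatty acid desaturase genes FADS1 (0.93) and FADS2 (0.78) lie side by side on chromosome 11, and LSS, lanosterol synthase, was lower (-0.46). Of 20 NRF2 targets, 1 was higher, the ferritin heavy chain gene FTH1, at 1770, 1478 and 1540 CPM in ALG6/UGGT1-/- against 790.4, 808 and 1022 CPM in WT cells (0.87), also on chromosome 11. Of the NRF2 targets, 9 were higher and 5 lower in the 4-library comparison.

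A share of the adhesion and BMP pathway genes was higher. Of 29 integrins, cadherins and other adhesion genes, 7 were higher and none lower (8 and none after rescaling), with a median of 0.54 (0.33 with the length and GC correction). Their 4-library counts were 22 higher and 2 lower. The 7 higher genes became 2 without ALG6/UGGT1-/- replicate 2 or 3, 3 without WT replicate 2 and 11 without WT replicate 3. EPCAM, an epithelial adhesion molecule, was at 19.3, 21.3 and 20.6 CPM in ALG6/UGGT1-/- against 9.29, 7.79 and 6.83 CPM in WT cells (log2 fold change 1.31, adjusted p = 0.00384). The tight junction gene CLDN6 was at 16.7, 13.99 and 12.7 CPM in ALG6/UGGT1-/- against 5.31, 5.47 and 5.75 CPM in WT cells (1.31), and CLDN1 at 8.10, 11.5 and 12.5 CPM in ALG6/UGGT1-/- against 4.26, 3.90 and 3.15 CPM in WT cells (1.38). None of these 3 genes, named for their small p, overlapped between the lines. Over the list of 29, every ALG6/UGGT1-/- value lay above every WT value in 12 genes and below in 2, against 20.7% and 19.4% of all genes. Of 21 ID genes and genes of BMP and SMAD feedback, 6 were higher and 2 lower as deposited, and the 6 and 1 of the 2 kept their calls after rescaling. The median was 0.49 (0.22 after the correction), and 13 were higher and 4 lower in the 4-library comparison. The 6 became 3 without ALG6/UGGT1-/- replicate 3. BMP2, a ligand of the pathway, was at 45.1, 49.3 and 53.1 CPM in ALG6/UGGT1-/- cells, against 10.3, 10.3 and 7.58 CPM in WT cells (2.33, standard error 0.15, adjusted p = 0.00121). ID3, an inhibitor of differentiation that BMP signaling induces, was at 77.7, 70.6 and 73.03 CPM in ALG6/UGGT1-/- against 24.1, 22.99 and 29.1 CPM in WT cells (1.53, adjusted p = 0.00152), and ID1 at 8.77, 7.05 and 7.001 CPM in ALG6/UGGT1-/- against 2.77, 2.68 and 2.40 CPM in WT cells (1.38, adjusted p = 0.00355). The means of ID3 were 224, 80.3 and 78.1 CPM in ALG6-/-, ALG6/UGGT2-/- and ALG6/UGGT1/UGGT2-/- cells. MSX1, another BMP target, was lower (-0.57).

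Of 25 growth factor receptors, 4 were higher and none lower, and 2 and none after rescaling. In the 4-library comparison 9 were higher and 6 lower (36% and 24%), near the 33.4% and 25.1% of all genes. The collagen receptor DDR2 led the 4, at 8.85, 16.2 and 17.5 CPM in ALG6/UGGT1-/- against 3.14, 2.83 and 1.24 CPM in WT cells (log2 fold change 2.35). Of 24 immediate early genes, which respond to growth factors, 6 were higher and none lower under both scalings (10 and 4 in the 4-library comparison), and the 6 became 2 without ALG6/UGGT1-/- replicate 2 or 3 or WT replicate 2. ETV5, an ETS factor induced by ERK, was at 17.6, 16.1 and 15.3 CPM in ALG6/UGGT1-/- against 7.28, 7.20 and 7.14 CPM in WT cells (1.12), and the ERK feedback inhibitor SPRY4 at 2.69, 2.73 and 3.06 CPM in ALG6/UGGT1-/- against 0.764, 1.02 and 0.639 CPM in WT cells (1.35). Of 18 Notch genes, 2 were higher and 4 lower (4 and 6 in the 4-library comparison). The lower ones were the targets HES4 (-0.70), HES6 (-0.82), NRARP (-0.62) and HES5. Of 21 WNT genes, none was higher and 1 was lower, TCF7L1 (-0.53), while 5 were higher and 5 lower in the 4-library comparison. Of 32 collagens, laminins and other basement membrane genes, 1 was higher and 6 lower (6 and 16 in the 4-library comparison). The cartilage collagen COL2A1 was at 159, 158 and 146 CPM in ALG6/UGGT1-/- against 261, 281 and 286 CPM in WT cells (-0.84), and COL6A2 had -0.66. Of 22 nervous system genes that HEK293 cells express, 4 were higher and 6 lower (9 and 8 in the 4-library comparison). All 31 genes of that list in the table, tested or not, summed to 1911, 1758 and 1794 CPM in ALG6/UGGT1-/- cells, against 1795, 1848 and 1921 CPM in WT cells. GAP43, of growing axons, was at 4.20, 4.48 and 3.58 CPM in ALG6/UGGT1-/- against 9.73, 10.4 and 11.7 CPM in WT cells (-1.28), and the neurofilament gene INA at 45.4, 51.7 and 51.1 CPM in ALG6/UGGT1-/- against 25.9, 23.7 and 19.6 CPM in WT cells (1.09). Markers of other cell types stayed low. The leukocyte list summed to 3.22, 2.95 and 3.31 CPM in ALG6/UGGT1-/- cells, against 3.41, 2.80 and 3.85 CPM in WT cells, and the endothelial list to 1.05, 1.01 and 1.23 CPM in ALG6/UGGT1-/- cells, against 0.724, 1.26 and 0.679 CPM in WT cells. The muscle and fibroblast list summed to 7.01, 6.70 and 5.77 CPM in ALG6/UGGT1-/- cells, against 5.03, 4.80 and 5.55 CPM in WT cells. Of its 3 tested genes, LUM, the matrix protein lumican, was higher (1.51) and DES, desmin, lower (-1.03).

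Some of the changed genes were neighbors on a chromosome. With 13053 tested genes reported here placed in order, 1161 were called higher (8.89%) and 1154 lower (8.84%), and the longest run of consecutive called genes had 11 members, on chromosome 5. Most calls had no such neighbor: 806 of the higher and 843 of the lower genes stood alone, with neither adjacent gene called in the same direction. On chromosome 11, 207 of 738 genes were higher and 23 lower, and after rescaling 151 and 19. Its median log2 fold change, corrected for transcript length and GC content, was 0.28 in ALG6/UGGT1-/- cells, against -0.05, -0.12 and -0.01 in ALG6-/-, ALG6/UGGT2-/- and ALG6/UGGT1/UGGT2-/- cells, which are set against the same WT libraries. It was 0.29, 0.28 and 0.29 in the 3 ALG6/UGGT1-/- replicates. Chromosome 5 had 103 of 584 genes higher (17.6%) and 43 lower, with a corrected median of 0.13 in ALG6/UGGT1-/- cells. That median was 0.15, -0.17 and -0.11 in ALG6-/-, ALG6/UGGT2-/- and ALG6/UGGT1/UGGT2-/- cells. Chromosome 22 had 53 of 315 genes higher and 6 lower, with a corrected median of 0.23, but of 0.32 and 0.30 in ALG6/UGGT2-/- and ALG6/UGGT1/UGGT2-/- cells too. The share of lower genes was 17.5% on chromosome 21 (22 of 126, with 8 higher), 14.5% on chromosome 19 (137 of 948, with 45 higher) and 13.1% on chromosome 2 (113 of 861, with 46 higher), and was 12.9% on chromosomes 6 and 9. Corrected medians were -0.17, -0.07 and -0.09 on chromosomes 21, 19 and 2. On chromosome 21 it was 0.14, -0.16 and -0.09 in ALG6-/-, ALG6/UGGT2-/- and ALG6/UGGT1/UGGT2-/- cells. After the correction the share of lower genes was highest on chromosome 10 (26.4%, with a median of -0.17).

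Stretches were then marked where the corrected running median of 21 genes passed 0.25 in either direction over at least 20 genes, a choice made after the values were seen. There were 13 stretches of higher genes, with 838 genes, and 6 of lower genes, with 349. The higher stretches held 6.42% of the placed genes and 24.98% of the higher calls, which is a description, since the same fold changes marked them. The lower stretches held 2.67% of the placed genes and 8.15% of the lower calls. Chromosome 11 held 4 of the higher stretches, between 0.5 and 94.5 Mb, with corrected medians of 0.32 to 0.42. Chromosome 5 also held 4, between 73.5 and 146.2 Mb, with corrected medians of 0.28 to 0.43. The longest lower stretch, on chromosome 2 from 84.8 to 119.4 Mb (TRABD2A to C2orf76, GRCh38), had 48 of 129 genes lower and 2 higher, with a corrected median of -0.49 in ALG6/UGGT1-/- cells and -0.01, -0.01 and 0.09 in ALG6-/-, ALG6/UGGT2-/- and ALG6/UGGT1/UGGT2-/- cells. Outside all stretches, 864 of 11866 genes were higher (7.28%) and 1052 lower (8.87%). DNA copy number was not measured.

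**Figure D4:**
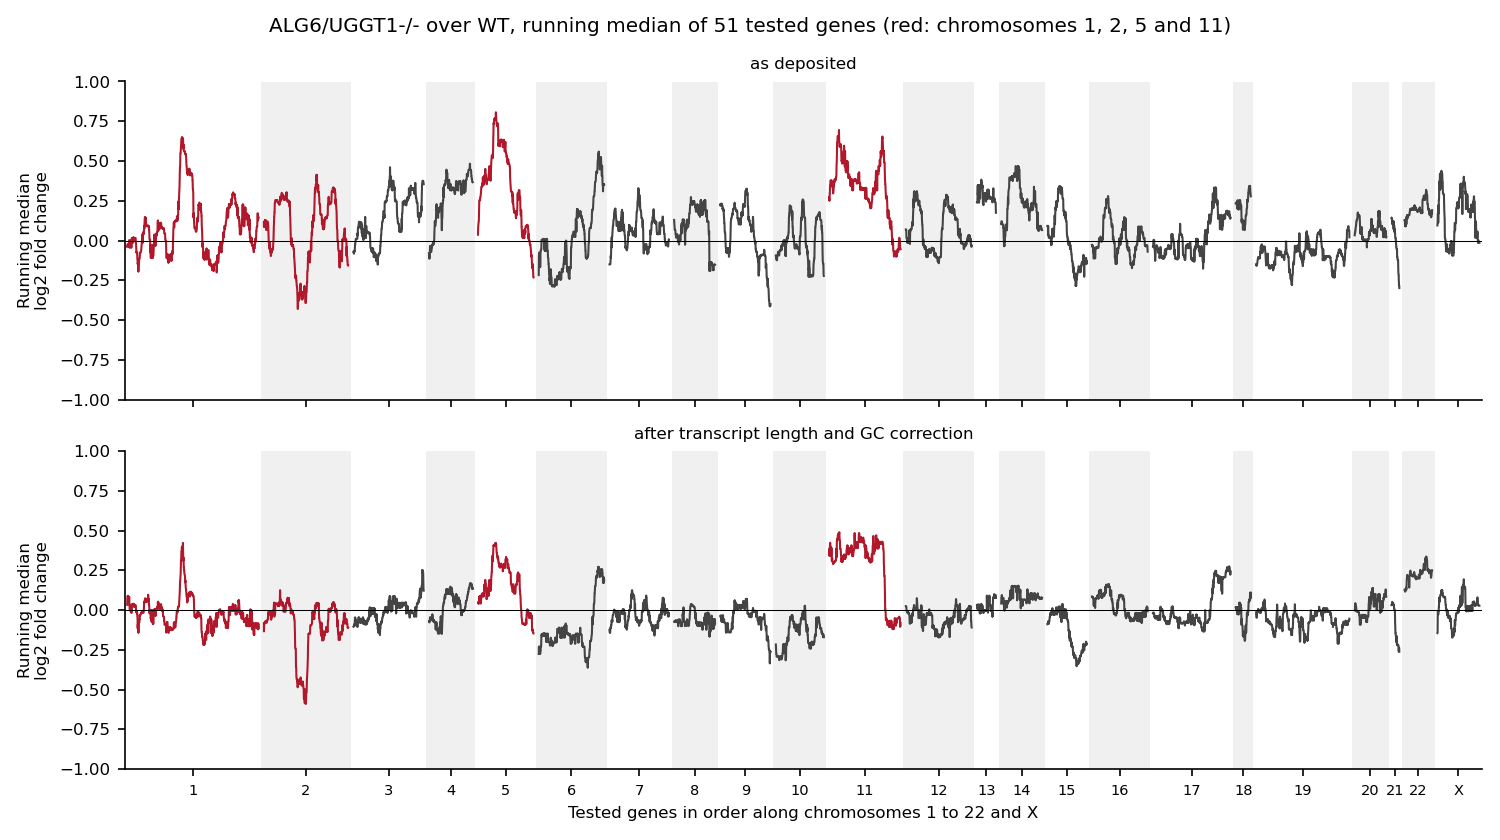
Running median over 51 tested genes of the log2 fold change of ALG6/UGGT1-/- over WT cells along chromosomes 1 to 22 and X, as deposited (upper panel) and after correction for transcript length and GC content (lower panel). Chromosomes 1, 2, 5 and 11 are in red. The corrected line stays between -0.59 and 0.49, is high over most of chromosome 11 and dips in the middle of chromosome 2.

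The run on chromosome 5 spans 2.11 Mb (chr5:74721206-76835315 of GRCh38) and joins genes of unlike function. It holds GFM2 and NSA2, of mitochondrial translation and ribosome assembly, FAM169A, ANKRD31, COL4A3BP, the ceramide transfer protein, POLK, a translesion DNA polymerase, POC5, of centrioles, IQGAP2, and the protease-activated receptor genes F2RL2, F2R and F2RL1. All 11 were called higher under both scalings, without overlap, with log2 fold changes of 1.20 to 2.51. F2R, the thrombin receptor, was at 74.7, 124 and 119 CPM in ALG6/UGGT1-/- cells, against 39.2, 31.3 and 22.9 CPM in WT cells (log2 fold change 1.75, adjusted p = 0.0098). COL4A3BP was at 60.6, 92.8 and 91.4 CPM in ALG6/UGGT1-/- against 23.9, 19.3 and 11.1 CPM in WT cells (2.18, adjusted p = 0.00813), and POLK at 31.3, 46.8 and 50.6 CPM in ALG6/UGGT1-/- against 11.6, 9.41 and 6.15 CPM in WT cells (2.20, adjusted p = 0.00591). In these 3 genes each lowest ALG6/UGGT1-/- value came from replicate 1 and each lowest WT value from replicate 3. Summed over the 11 genes, the level was 706, 883 and 885 CPM in ALG6/UGGT1-/- cells, against 259.9, 236 and 206 CPM in WT cells. The means of that sum were 204, 188.5 and 195.5 CPM in ALG6-/-, ALG6/UGGT2-/- and ALG6/UGGT1/UGGT2-/- cells. After the correction the median log2 ratio to WT was 1.56, 1.55 and 1.59 in the 3 ALG6/UGGT1-/- replicates, values that lie close together. All 11 genes were higher than the mean of the other 3 knockout lines under both scalings, though NSA2, after the correction, was at 1.03 in ALG6-/- cells, above its 0.80 in ALG6/UGGT1-/- cells. On either side the difference was smaller: ENC1, before the run, was at -0.19 (adjusted p = 0.462), and AGGF1, after it, at 0.74 (adjusted p = 0.0603). The run lies within a longer stretch of higher genes, from 73.5 to 87.4 Mb. In that stretch 21 of 47 genes were higher and none lower, with a corrected median of 0.42. The run was chosen after the values were seen.

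**Figure D5:**
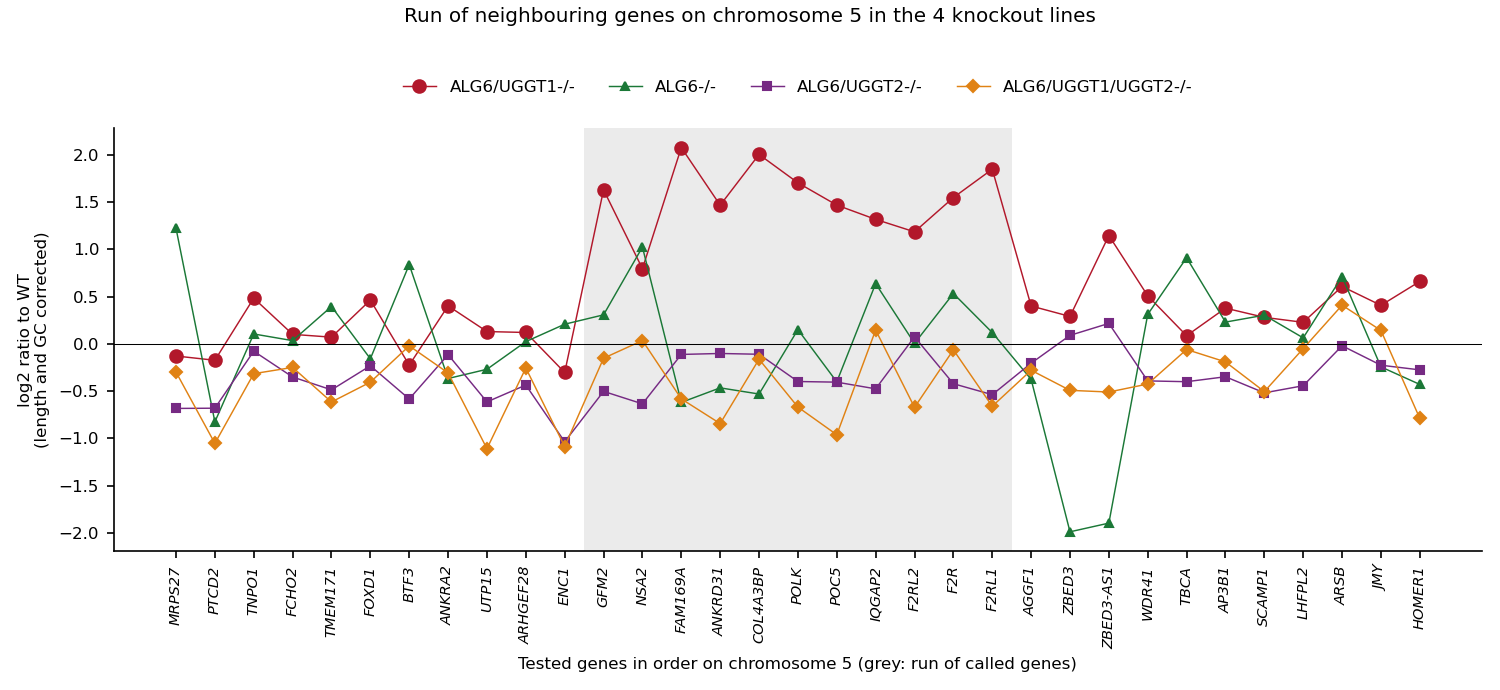
Log2 ratio to WT, corrected for transcript length and GC content, of neighboring tested genes on chromosome 5 in gene order, for ALG6/UGGT1-/- cells (large circles) and the 3 other knockout lines. Grey marks the run of 11 called genes. There the ALG6/UGGT1-/- values lie between 0.80 and 2.08, and the medians of the other lines are 0.12, -0.40 and -0.58. ALG6-/- cells span -0.62 to 1.03 over the run and lie above ALG6/UGGT1-/- cells at NSA2.

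The next longest runs were of 8 genes. On chromosome 11, TMEM258, FEN1, FADS2, FADS1, FADS3, RAB3IL1, BEST1 and FTH1 were all higher, and on chromosome 9, NELFB, TOR4A, NRARP, EXD3, NOXA1, NSMF, MRPL41 and DPH7 were all lower. The gene order around the targeted loci was examined as well. ALG6 lies at chr1:63367575-63438553 of GRCh38. Of the 20 tested genes before it, none was higher and 2 were lower, with a corrected median of 0.02, while of the 20 after it 8 were higher and none lower, with 0.40. JAK1, the cytokine receptor kinase, in that second group, was at 107, 136 and 134 CPM in ALG6/UGGT1-/- against 68.5, 65.03 and 45.5 CPM in WT cells (log2 fold change 1.08, adjusted p = 0.0135), and every ALG6/UGGT1-/- value was higher. The stretch of higher genes there runs from PGM1 to NEXN, from 63.6 to 77.9 Mb, with 17 of 37 genes higher, none lower and a corrected median of 0.47. That median was -0.06, -0.02 and -0.01 in ALG6-/-, ALG6/UGGT2-/- and ALG6/UGGT1/UGGT2-/- cells, which also lack ALG6. UGGT1 lies at chr2:128091200-128195677. Of the 20 genes before it none was called, with a corrected median of 0.06, and of the 20 after it 1 was higher and 6 were lower, with -0.26. JAK1 and the next gene were picked after their values were seen. SMPD4, a neutral sphingomyelinase gene after UGGT1, was at 142, 137 and 137 CPM in ALG6/UGGT1-/- against 196, 195 and 183 CPM in WT cells (-0.46, adjusted p = 0.00836).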

How the data were processed

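Poly(A) mRNA libraries of 5 cell lines, 3 per line and each sequenced on 4 lanes, were analyzed from 1 deposited table. The submitters' processing notes name FastQC, MultiQC, STAR, RSEM, edgeR and hg38, with no versions given in the sources used here. The authors deposited counts per 1000000 reads (CPM), each library summing to 1000000, so these values carry no depth of their own. The low values step by what 1 read is worth, which gave an estimated 23.8 to 25.7 reads per CPM for the 6 libraries. Between 90.4% and 91.1% of values were whole reads within 0.02, and no count test was run. The library kit marks strand, but the sources give no strand setting for the counting, so genes that overlap on opposite strands cannot be told apart.

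Genes that reached 1 CPM in 3 or more of 6 libraries were tested with limma 3.58.1 (R 4.3.3, variance trend) on log2(CPM + 0.5), and p-values were adjusted by Benjamini-Hochberg over all 14279 genes. A fold change on this scale understates the change of low genes. Calls rest on an adjusted p under 0.05, both as deposited and after median-ratio rescaling. ALG6/UGGT1-/- cells were also set against the mean of the other knockout lines in a fit of 15 libraries. Correction for transcript length and GC content used splines over GENCODE 44 annotation, to which 24872 symbols matched directly and 1050 as older names. Chromosome arms had been planned, but whole chromosomes were used because no centromere positions were at hand. Promoters and motif positions came from RefSeq on GRCh38.p14. The fits were tested on simulated libraries of equal spread, and the length and GC correction with a planted length trend. In the test of the fits no library stood apart, so it does not cover libraries like those that did here.

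The cell lines and gene lists were chosen with earlier results of these data known. Named genes were ALG6, UGGT1 and UGGT2, the 15 largest rises and falls called under both scalings without overlap and with at least 5 CPM in the higher line, and up to 4 called members of every list, those of smallest p. Further members of the lists of ER chaperones, calnexin cycle and unfolded protein response were chosen after their values were seen. So were genes named by their place on a chromosome. List members and the largest changes were picked on these same libraries, so a lack of overlap between the lines in a named gene is no added support. Of the gene names, 28 had turned into dates and 8 columns had no header. These columns were not used. Results on some single genes are not reported here. Alternatives tried were other pseudocounts, filters and scalings, the replicate number as a block, no variance trend, all 15 libraries in 1 fit, and each library left out.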

Additional observations from a re-analysis of the deposited data

How the results depend on the processing

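Of 125 named genes that were called, none changed direction under 17 alternatives, and 125 were still called without ALG6/UGGT1-/- replicate 1 and WT replicate 3. After median-ratio rescaling 109 were still called, after the transcript length and GC correction 119, and without a filter 117. Calls depended on which library was left out. The 1232 higher and 1254 lower genes ranged from 290 to 1418 and from 229 to 1575 when 1 library was left out, and those after rescaling from 263 to 1341 and from 173 to 1163. ATF6 list members called higher ranged from 3 to 16, and genes of the run on chromosome 5 from 8 to 11. Without both libraries that stood apart, a choice made after seeing the data, 4775 were higher and 3583 lower, 4448 and 4061 after rescaling, and 20 of the ATF6 list were higher. The length and GC correction gave 2043 and 2058, and 15 libraries in 1 fit gave 1980 lower. Against the other knockout lines, 5269 were higher as deposited and 3440 after rescaling.

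The deviations of same-numbered libraries from the mean of their line correlated at -0.76, 0.60 and -0.63. Those of ALG6/UGGT1-/- replicate 1 and WT replicate 3, the libraries that stood apart, correlated at 0.81. Because these libraries shape the deviations, the correlations cannot decide whether the replicate numbers pair the libraries. With the replicate number as a block, 9 genes were higher and 8 lower as deposited, 231 and 139 after rescaling, 0 of the ATF6 list and 2 of the chromosome 5 run were higher, and 9 of the 125 named genes were called. ALG6 and UGGT1 kept log2 fold changes of -2.15 (adjusted p = 0.0686) and -1.39 (adjusted p = 0.127) with the block. In 15 libraries UGGT1 had -1.39 (adjusted p = 0.0572). Leaving out 1 library gave -2.31 to -2.02 for ALG6 and -1.68 to -1.18 for UGGT1. UGGT2 ranged from -0.23 to 0.18. It turned to 0.18 without ALG6/UGGT1-/- replicate 1, 0.17 without WT replicate 1 and 0.05 without WT replicate 2, and was not called in any of these. With 3 libraries a line and 4 residual degrees of freedom, a missed call does not show that a gene did not differ.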
